A study of Mus musculus with 18 samples.

Results

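The myosin heavy chain genes examined were the skeletal muscle genes *Myh1*, *Myh2*, *Myh3*, *Myh4*, *Myh7* and *Myh8* and the non-muscle genes *Myh9* and *Myh10*. They were chosen by name, and all 8 were found by their Ensembl identifiers among the 19153 genes of the RNA-seq tables. The cells were immortalized mouse myoblasts, all of them p53 knockout, in 2 genotypes: LAP2α wildtype cells (WT), which had received the Cas9 vector without a guide, and LAP2α knockout cells (KO), edited with a guide against exon 4 of *Tmpo*, the gene of the nuclear protein LAP2α. Both lines were sorted pools and not single clones, so unedited cells can be present in KO. The paper checked the editing by sequencing the cut site and reported efficient depletion of the LAP2α protein on Western blots. Cells were collected while proliferating (Prol), on reaching confluence in 20% serum at the start of differentiation (D0) and after 48 h in 5% serum (D2), with 3 libraries in each of the 6 groups.

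Myosin heavy chains are the motor subunits of the thick filament and of the contractile actin bundles of all cells. Skeletal muscle expresses them in a developmental series, with embryonic (*Myh3*) and perinatal (*Myh8*) chains in forming fibres, then the adult fast chains IIx (*Myh1*), IIa (*Myh2*) and IIb (*Myh4*) and the slow and cardiac β chain (*Myh7*). *Myh9* and *Myh10* encode non-muscle myosins IIA and IIB, which serve adhesion, migration and cell division in myoblasts. All of the skeletal genes except *Myh7* lie in tandem.

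In the GRCm38 mouse genome with GENCODE M21 annotation, *Myh3*, *Myh2*, *Myh1*, *Myh4*, *Myh8* and *Myh13*, an extraocular muscle chain, follow each other on the plus strand of chromosome 11 over 293.3 kb, from *Myh3* (chr11:67078300-67102291, ENSMUSG00000020908) past *Myh2* (chr11:67171027-67197517, ENSMUSG00000033196), *Myh1* (chr11:67200052-67224575, ENSMUSG00000056328) and *Myh4* (chr11:67238029-67260446, ENSMUSG00000057003) to *Myh8* (chr11:67277124-67308634, ENSMUSG00000055775) and *Myh13*, which ends at 67371586. *Myh10* (chr11:68691559-68816632, plus strand, ENSMUSG00000020900) is on the same chromosome outside this cluster. *Myh7* (chr14:54970684-54994626, minus strand, ENSMUSG00000053093) is next to *Myh6*, the cardiac α chain (chr14:54941921-54966927, minus strand). *Myh9* is on the minus strand of chromosome 15 (chr15:77760587-77842175, ENSMUSG00000022443). The longest coding transcripts of the skeletal members are 6.016 to 6.23 kb, and those of *Myh9* and *Myh10* are 7.433 and 7.791 kb.

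The genes are so alike that single reads of 50 bases can come from several of them. The following stretch of 50 coding bases, read 5′ to 3′ on the coding strand, is shown because it is the same in *Myh1* (exon 14, chr11:67206531-67206580), *Myh2* (exon 14, chr11:67179553-67179602), *Myh4* (exon 13, chr11:67245718-67245767) and *Myh8* (exon 14, chr11:67286430-67286479). The aligned stretches of the other members follow, with capitals for the bases that differ. They are from *Myh3* (exon 14, chr11:67087503-67087552), *Myh7* (exon 15, chr14:54988821-54988870, minus strand), *Myh9* (exon 12, chr15:77787559-77787608, minus strand) and *Myh10* (exon 12, chr11:68765095-68765144).
Myh1, Myh2, Myh4 and Myh8: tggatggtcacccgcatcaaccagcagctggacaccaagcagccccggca
Myh3: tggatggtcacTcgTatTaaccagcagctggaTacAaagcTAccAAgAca
Myh7: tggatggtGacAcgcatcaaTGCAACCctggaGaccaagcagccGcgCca
Myh9: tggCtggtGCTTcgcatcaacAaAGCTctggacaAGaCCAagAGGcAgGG
Myh10: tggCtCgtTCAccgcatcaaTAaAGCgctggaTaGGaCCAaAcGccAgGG

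The embryonic gene *Myh3* differed from the shared stretch at 10 of the 50 bases, *Myh7* at 12 and the non-muscle genes at 21 each. Over whole transcripts, the share of 50-base windows that occur without mismatch in another gene was 26.7% for *Myh1*, 26.9% for *Myh2*, 18.9% for *Myh4* and 21.4% for *Myh8*. *Myh7* had 22.2% of such windows, all 1373 of which occur in *Myh6*. *Myh3* had 4.81%, and *Myh9* and *Myh10* had 1.12% and 0.943%. RSEM, the program that made the counts, divides reads from shared windows between genes by estimation, so the levels of the adult, perinatal and slow chains are less certain than those of *Myh3*, *Myh9* and *Myh10*.

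**Figure D1:**
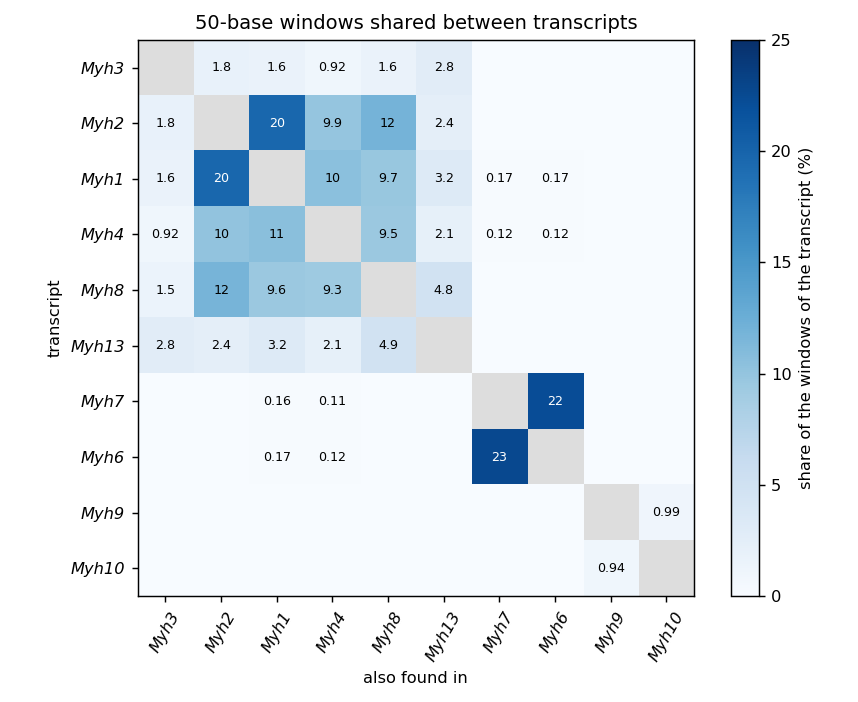
Share of the 50-base windows of each transcript (rows) that also occur, on the same strand and without mismatch, in the transcripts of another gene (columns), in percent of the windows of the row; grey cells are the gene itself and empty cells are 0. *Myh1*, *Myh2*, *Myh4* and *Myh8* form 1 block and *Myh7* and *Myh6* another, while *Myh3*, *Myh9* and *Myh10* share few windows.

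The promoters were taken from the RefSeq table for GRCm38.p6, with 250 bases before and 50 after each start site, and all 8 members had an entry. The table held a match to the MEF2 motif, the binding motif of the MEF2 factors, in the promoters of *Myh1*, *Myh4* and *Myh8*, against 3.19% of all 32851 promoters. All 3 matches were the same 10 bases, TTATTTATAG, which occur on either strand in 38 promoters (0.116%). The stretches are shown because *Myh1*, *Myh2*, *Myh4* and *Myh8* are alike here also outside their exons, with the nearest stretch of *Myh3* beside them. They are in capitals where they equal these 10 bases and begin 20 bases before them. They lie on the plus strand at chr11:67199871-67199930 (*Myh1*), chr11:67237610-67237669 (*Myh4*), chr11:67277005-67277064 (*Myh8*), chr11:67170839-67170898 (*Myh2*) and chr11:67078118-67078177 (*Myh3*).
Myh1: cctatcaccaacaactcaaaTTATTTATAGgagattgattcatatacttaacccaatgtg
Myh4: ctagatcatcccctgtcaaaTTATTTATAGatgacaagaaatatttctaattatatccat
Myh8: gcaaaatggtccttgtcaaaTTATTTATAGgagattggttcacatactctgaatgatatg
Myh2: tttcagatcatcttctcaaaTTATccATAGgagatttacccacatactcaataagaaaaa
Myh3: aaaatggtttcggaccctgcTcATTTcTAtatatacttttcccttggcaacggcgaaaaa

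*Myh2* differed from the 10 bases at 2 positions, and the nearest stretch of *Myh3* at 3, as did the nearest of *Myh7*, outside the cluster. E-boxes (CANNTG, which reads the same on both strands), the general form of the sites that MYOD1 and myogenin bind, occurred in the promoters of *Myh3*, *Myh4*, *Myh7*, *Myh8*, *Myh9* and *Myh10* and in 72.3% of all promoters. The *Myh3* promoter held 1 of them, CAGTTG, 191 bases before the start site. These are matches of letters only, and binding was not measured here.

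Levels are given as counts scaled to library size (CPM), as deposited. The libraries held 26437823 to 41619016 expected counts, so a gene at 3 counts, taken here as the limit of detection, had about 0.1 CPM. These limits and all p-values cover only counting and the spread between these libraries, which the labels do not tie to separate cell lines. *Myog*, the regulator myogenin, was at 261 to 532 CPM in WT D2 and 148 to 232 in KO D2 and at no more than 4.53 CPM before. Of 6 myoblast markers 5 were listed (*Myod1*, *Myf5*, *Des*, *Cdh15* and *Ncam1*, without *Pax7*). Their summed level was 102 to 244 CPM in the Prol and D0 libraries, 497 to 853 in WT D2 and 382 to 430 in KO D2. The sum does not follow each marker. From WT Prol to WT D2 mean *Myod1* went from 2.59 to 88.9 CPM and *Des* from 3.44 to 173, but *Myf5* from 24.5 to 17.6. The fibroblast markers, all 6 of which were listed, summed to 2340 to 7760 CPM before D2 and 3930 to 20900 at D2, mostly from the collagen genes *Col1a1* and *Col1a2*. The macrophage markers listed, 2 of 4, stayed at or under 8 CPM, and the endothelial ones, 3 of 4, at or under 2.46 CPM. Of the cardiomyocyte markers, 3 of 5 were listed, and their sum was 0.157 to 1.07 CPM before D2, where *Myh6* had 0 to 5.3 expected counts a library, 5.29 to 11.9 in WT D2 and 2.39 to 5.05 in KO D2. The smooth muscle markers, 4 of 5, summed to 419 to 938 CPM before D2, 1030 to 1840 in WT D2 and 719 to 1250 in KO D2. The part of these markers in the results was not tested. In bulk RNA, fewer cells that differentiate and less RNA per cell cannot be told apart. *Tmpo* averaged 299.7 ± 21.8 CPM (SD, n = 3) in WT Prol and 246 ± 16.6 in KO Prol, but these values sum all its transcripts and do not measure LAP2α.

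*Myh3*, the embryonic chain, made up most of the skeletal heavy chain mRNA at D2. In WT Prol it was at 4.72, 1.17 and 0.49 CPM in libraries 1, 2 and 3, in WT D0 at 11.3, 0.772 and 1.19, and in WT D2 at 2070, 1001 and 1049. In KO Prol it was at 2.23, 4.32 and 0.682 CPM, in KO D0 at 0.728, 5.29 and 0.565, and in KO D2 at 743, 690 and 639. Prol and D0 overlapped in both genotypes, and every D2 library was far above both. On the log2 scale *Myh3* rose from Prol to D2 by 9.86 (limma, standard error 1.03, adjusted p = 3.8e-06) in WT and 8.52 (1.03, adjusted p = 1.43e-05) in KO. The 2 confluent libraries with the most *Myh3*, WT D0 library 1 and KO D0 library 2, also had the most *Myog* of the D0 libraries, at 4.53 and 3.15 CPM against 0.5 to 1.23 CPM in the other 4.

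All 6 skeletal chains rose between Prol and D2, and between D0 and D2, in both genotypes. Of the genes tested, 16.6% rose by the same test (limma, adjusted p under 0.05) in WT D2/Prol, 17.1% in KO D2/Prol, 14.7% in WT D2/D0 and 15.3% in KO D2/D0. Genes were tested if every library of some group exceeded 5 expected counts, and *Myh1*, *Myh2*, *Myh4* and *Myh7* met this only at D2, so that they entered the test through the groups in which they were high. Over the 6 chains the median log2 fold change was 7.38 in WT D2/Prol and 6.04 in KO D2/Prol, beside -0.01 and 0.024 over all genes tested. These medians depend on the 0.5 counts added to *Myh2* and *Myh4*, which had 0 counts in Prol, and with both chains set to the lower bounds of their change they were 7.11 and 5.6. *Myh1* and *Myh7* had 0 to 7 expected counts in a Prol library, so their rises also depend in part on the added 0.5 counts. The medians with bounds still use their fitted values.

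**Figure D2:**
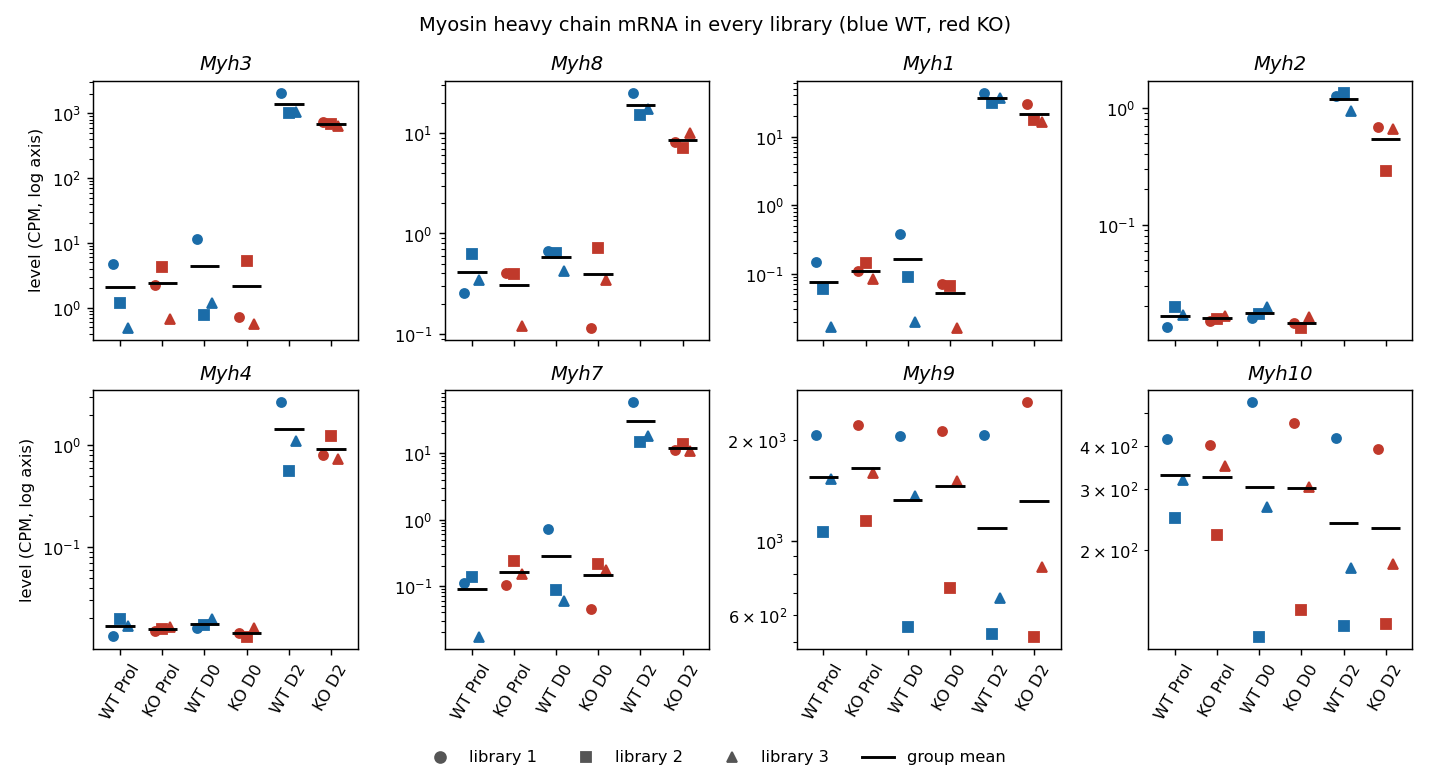
Level of each myosin heavy chain (CPM, log axis) in the 18 libraries, with blue for WT, red for KO, 1 symbol for each library number and bars for group means. The 6 skeletal chains were low in Prol and D0 and high at D2, *Myh2* and *Myh4* had 0 counts in all Prol and D0 libraries (the points there are the added 0.5 counts), and *Myh9* and *Myh10* were high in every group with library 1 at the top.

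The perinatal chain *Myh8* was the only other skeletal member above the detection limit in every library before differentiation. It was at 0.254, 0.627 and 0.347 CPM in WT Prol, 0.668, 0.642 and 0.424 in WT D0, and 25.1, 15 and 17.3 in WT D2. In KO it was at 0.406, 0.396 and 0.121 CPM in Prol, 0.115, 0.713 and 0.345 at D0, and 8.1, 7.16 and 10.1 at D2. The D2 libraries were above all others in both genotypes, and *Myh8* rose by 5.62 on the log2 scale in WT D2/Prol (limma, standard error 0.591, adjusted p = 4.06e-06) and by 4.96 in KO D2/Prol (0.591, adjusted p = 1.27e-05).

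Among the adult fast chains, *Myh1* had 0 to 11.5 expected counts in a library before D2, and exceeded 3 counts in 4 of these 12 libraries. At D2 it was at 43.6, 31.3 and 36.6 CPM in WT and 30.3, 17.4 and 16.1 in KO. It rose over Prol by 9.45 on the log2 scale (limma, standard error 0.913, adjusted p = 1.86e-06) in WT and by 7.56 (0.913, adjusted p = 1.43e-05) in KO. *Myh2* and *Myh4* had no counts in any Prol or D0 library. At D2 *Myh2* was at 1.25, 1.34 and 0.932 CPM in WT and 0.681, 0.285 and 0.66 in KO, from 12.7 to 48.5 expected counts a library. *Myh4* was at 2.65, 0.561 and 1.1 CPM in WT and 0.798, 1.23 and 0.736 in KO, from 20 to 88.4 expected counts. Against a level of 3 counts in each Prol library, *Myh2* was at least 10.1-fold higher in WT D2 and at least 4.9-fold higher in KO D2, and *Myh4* at least 12.3-fold and 8.32-fold higher. *Myh1* had 614 to 1465 expected counts at D2, and 19.7% of its windows occur in *Myh2* and 10.5% in *Myh4*, so how many of the few counts of the IIa and IIb genes are their own is uncertain.

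The slow chain *Myh7* had 0 to 21.7 expected counts in a library before D2 and exceeded 3 counts in 6 of these 12 libraries. At D2 it was at 58.5, 14.5 and 17.8 CPM in WT and 11.1, 13.5 and 10.7 in KO. WT library 1 stood apart from the other 5 D2 libraries, which lay within 10.7 to 17.8 CPM. *Myh7* rose over Prol by 8.6 on the log2 scale (limma, standard error 0.938, adjusted p = 5.62e-06) in WT and by 6.24 (0.938, adjusted p = 0.000111) in KO. *Myh6*, which shares 22.6% of its windows with *Myh7*, was at 6.11 ± 4.59 CPM (SD, n = 3) in WT D2 and 2.47 ± 0.468 in KO D2, so the part of either that belongs to the other is uncertain.

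To compare chains with each other, CPM were divided by the exonic length of the longest coding transcript. In WT D2 *Myh3* averaged 228 ± 100.1 CPM per kb (SD, n = 3), *Myh1* 6.11 ± 1.02, *Myh7* 4.86 ± 3.93, *Myh8* 3.11 ± 0.862, *Myh4* 0.239 ± 0.18 and *Myh2* 0.193 ± 0.0352. In KO D2 the same order was *Myh3* 114.5 ± 8.6, *Myh1* 3.49 ± 1.29, *Myh7* 1.89 ± 0.244, *Myh8* 1.37 ± 0.24, *Myh4* 0.153 ± 0.0443 and *Myh2* 0.0891 ± 0.0366. In WT D2 the ranges of *Myh1* and *Myh7*, of *Myh7* and *Myh8*, and of *Myh4* and *Myh2* overlapped, and in KO D2 no 2 neighbours of this order overlapped. The embryonic chain was above every other skeletal chain in each of the 18 libraries.

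The isoform shares at D2 overlapped between the genotypes. *Myh3* made up 93.5 to 94.2% of the summed skeletal level per kb in the WT D2 libraries (94 ± 0.371%, SD, n = 3) and 93.7 to 94.7% in the KO D2 libraries (94.3 ± 0.522%). *Myh1* made up 2.71 ± 0.66% in WT and 2.84 ± 0.822% in KO, *Myh7* 1.81 ± 0.67% and 1.56 ± 0.223%, and *Myh8* 1.34 ± 0.201% and 1.14 ± 0.274%. *Myh4* and *Myh2* were each at or under 0.169%. The ranges of WT and KO overlapped for each of the 6 chains.

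Before differentiation the few skeletal transcripts were more mixed. The share of *Myh3* in the summed skeletal level was 54.6 to 89.9% (WT Prol), 64.3 to 84.6% (KO Prol), 48 to 86.6% (WT D0) and 50.4 to 84.1% (KO D0). *Myh8* was next in all of these libraries except WT D0 library 1 and KO Prol library 3, where *Myh7* was, with 4.75 to 39.2% in WT and 7.59 to 30.2% in KO. The whole sum was 0.149 to 2.17 CPM per kb in these 12 libraries and 112 to 365 at D2, so the shares before D2 rest on few counts. Those of *Myh2* and *Myh4* there come only from the added 0.5 counts.

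**Figure D3:**
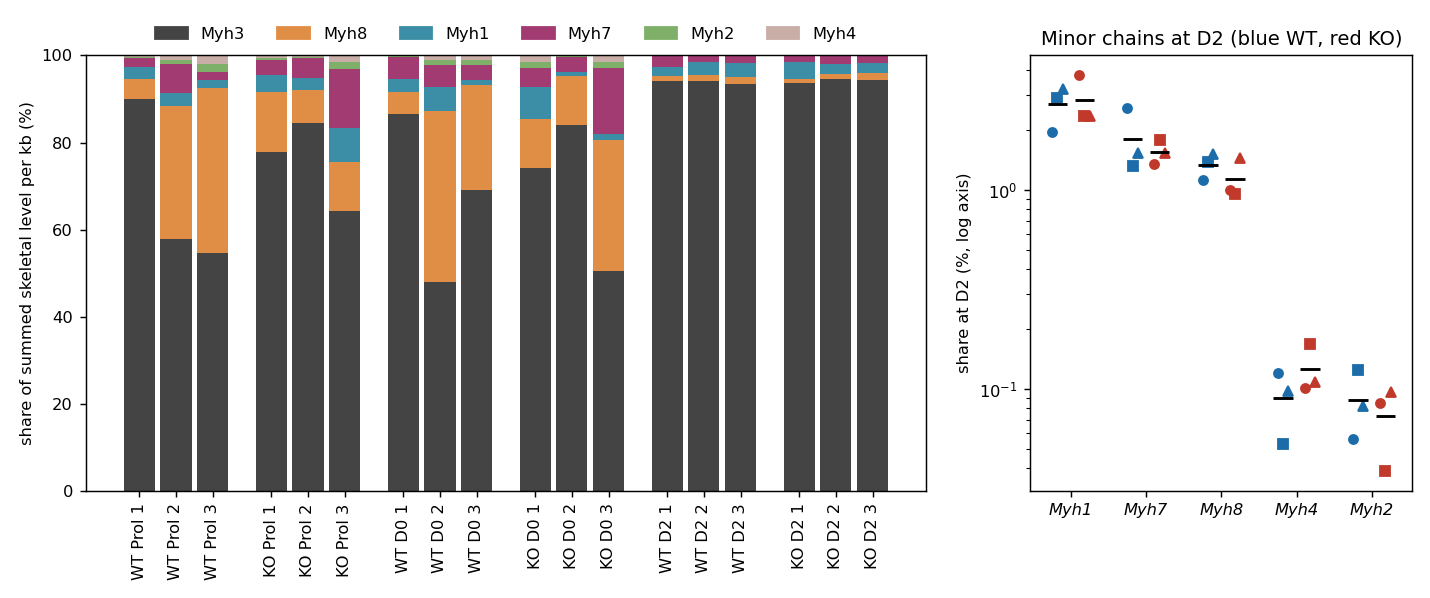
Left, share of each skeletal chain in the summed skeletal level per kb (percent) in each of the 18 libraries; right, shares of the 5 minor chains in the D2 libraries (percent, log axis), with blue for WT, red for KO, 1 symbol for each library number and bars for group means. *Myh3* makes up over 93% of the sum in all 6 D2 libraries, and WT and KO overlap for every minor chain.

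Ratios of chains within a library were compared between states. The log2 ratio of *Myh8* to *Myh3* averaged -2.33 over the Prol libraries and -6.24 over the D2 libraries, a difference of -3.91 (exact permutation test within genotypes, two-sided, p = 0.005, adjusted p = 0.015 over 12 tests), where 0.005 is the smallest p these libraries allow. Against D0 the difference was -4.22 (exact permutation test, adjusted p = 0.015). The log2 ratio of *Myh7* to *Myh3* fell by 1.77 from Prol (exact permutation test, adjusted p = 0.02) and fell by 2.16 from D0 (adjusted p = 0.015), but *Myh7* had 0 to 7.7 expected counts in 11 of the 12 earlier libraries and was tested only because of D2, so the earlier ratio partly reflects the added 0.5 counts. With same-numbered libraries taken as pairs, the adjusted p of these 4 differences was 0.075 to 0.125 in an exact test that cannot go below 0.0312 before adjustment. For *Myh2* to *Myh1* the differences were -2.93 from Prol and -3.23 from D0 (exact permutation test, adjusted p = 0.015 and 0.02), but *Myh2* had no counts before D2, so its ratio there is that of the added 0.5 counts.

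Between the genotypes at D2, no ratio passed the test. The log2 ratio of *Myh8* to *Myh3* was -6.37 ± 0.328 in KO and -6.12 ± 0.227 in WT (SD, n = 3), a difference of -0.25 (exact permutation test, two-sided, p = 0.3). It was -0.17 for *Myh7* to *Myh3* (p = 0.8 in the same exact test), -0.35 for *Myh2* to *Myh1* (exact p = 0.4) and -0.22 for *Myh10* to *Myh9* (exact p = 0.5). With 3 libraries against 3 this test cannot give a p under 0.1.

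The share of the D2 level that was present earlier was compared between chains. At D0, *Myh3* was at 0.323% of its D2 level in WT and 0.317% in KO, *Myh1* at 0.442% and 0.242%, *Myh7* at 0.941% and 1.23%, and *Myh8* at 3.02% and 4.63%. *Myh8* had the highest share in both genotypes. The WT values of the other chains rest on D0 library 1, without which they were 0.0715% for *Myh3*, 0.146% for *Myh1* and 0.239% for *Myh7*, and 2.78% for *Myh8*. In KO, D0 library 2 held most of the *Myh3*, at 5.29 CPM against 0.728 and 0.565 in libraries 1 and 3. It also held most of the *Myh8*, at 0.713 CPM against 0.115 and 0.345. The WT and KO shares of *Myh3* thus each rest mainly on a single library. *Myh1* exceeded 3 counts in no KO D0 library and in 1 WT D0 library, so no order among the other chains is read from these values. *Myh3* and *Myh8* were over 3 counts in all 12 earlier libraries, *Myh1* and *Myh7* in some and *Myh2* and *Myh4* in none. No chain passed the test between Prol and D0 in either genotype (limma, 0 of 8 at an adjusted p under 0.05, beside 0.00566% of all genes in WT and 0% in KO). At an unadjusted p under 0.05 the count was also 0 of 8, with and without voom weights, beside 2.17% of all genes in WT D0/Prol and 1.12% in KO D0/Prol without them.

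Skeletal heavy chain mRNA levels at D2 were lower in KO than in WT in most libraries, without passing the test. On Western blots the paper reported less myosin heavy chain and Myogenin protein in differentiating KO cells, and protein was not measured here. The paper also reported genes that differed between KO and WT at D2, by a p-value and a fold cutoff in its own model. All 3 KO libraries were below all 3 WT libraries for *Myh1*, *Myh2*, *Myh3*, *Myh7* and *Myh8*, 5 of the 8 members, and 3.81% of all genes tested showed the same order. None of the 8 passed the test (limma, 0 at an adjusted p under 0.05, as for 0% of all genes), and 1, *Myh2*, had an unadjusted p under 0.05, as did 1.96% of all genes, at a log2 fold change of -1.2 (95% interval -2.22 to -0.19). With voom weights 4 members had an unadjusted p under 0.05, namely *Myh1*, *Myh2*, *Myh7* and *Myh8*, beside 3.12% of all genes, and again none an adjusted one. With 1 CPM added to each value the same 4 had an unadjusted p under 0.05, beside 3.72% of all genes, and the lowest adjusted p was 0.0534. In a fit of the D2 groups alone they were *Myh1*, *Myh2*, *Myh3* and *Myh8*, beside 2.34%. Without the 6 libraries numbered 1, none of the 8 had an unadjusted p under 0.05. That fit has fewer libraries in every group, so the lack of such p-values does not by itself show a smaller difference. The median log2 fold change was -0.99 over the 6 skeletal chains and -0.01 over all genes.

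The width of the intervals differed between the chains. For *Myh8* the log2 fold change KO/WT at D2 was -1.16 (95% interval -2.42 to 0.093), for *Myh1* -0.85 (-2.79 to 1.08) and for *Myh3* -0.91 (-3.1 to 1.28). When voom weights were combined with the library number as a random block, which is nearest to the model of the study, the standard errors of *Myh1* and *Myh8* were 0.189 and 0.257 and their adjusted p 0.114 and 0.119. This fit was added after the data had been seen. With these weights *Myh1*, *Myh7* and *Myh8* met the criteria of an unadjusted p under 0.05, 1.5-fold and 10 CPM, as did 1.74% of all genes. The cutoff stated by the study is stricter, a log2 fold change beyond 1.5 in either direction. With voom weights alone the log2 fold changes of these chains, -0.87, -1.07 and -1.16, were short of it. *Myog* differed by -0.96 (standard error 0.693, limma, adjusted p = 1) between KO and WT at D2, a value within the range of the skeletal chains.

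Of the single libraries, WT D2 library 1 carried the most *Myh3*, *Myh7*, *Myh8*, *Myh1*, *Myh4* and *Myog*. Without it the log2 fold change KO/WT at D2 was -0.57 for *Myh3*, -0.46 for *Myh7* and 0.19 for *Myh4*. The other skeletal chains moved less. With each single library left out, *Myh2* ranged from -1.42 to -0.79, *Myh8* from -1.32 to -0.95 and *Myh1* from -1.14 to -0.68. Within same-numbered pairs of libraries, *Myh3* was lower in KO by 1.48, 0.54 and 0.71 on the log2 scale and *Myh8* by 1.63, 1.07 and 0.79. For *Myh7* the differences were 2.4, 0.105 and 0.73, smallest in the pair numbered 2.

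**Figure D4:**
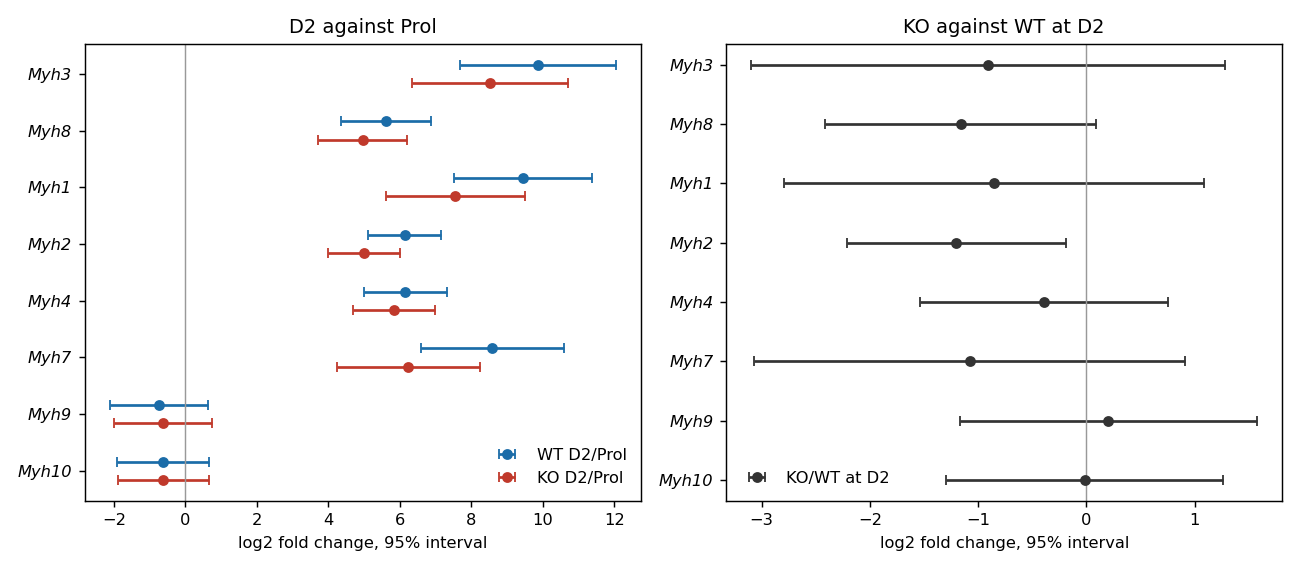
Log2 fold changes (x axis) of the 8 heavy chains (y axis) from limma with 95% intervals, for D2 against Prol in WT (blue) and KO (red) on the left and for KO against WT at D2 on the right. The 6 skeletal chains lie well above 0 on the left. The values there of *Myh2* and *Myh4*, and in part those of *Myh1* and *Myh7*, depend on the added 0.5 counts. On the right only the interval of *Myh2* leaves out 0, and its spread also draws on libraries with 0 counts.

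No chain passed the test of a different change from Prol to D2 in KO and WT (limma, 0 of 8 at an adjusted p under 0.05, beside 0% of all genes, and 0 of 8 at an unadjusted p under 0.05, beside 0.945%). At an unadjusted p under 0.05 there were 4 with 1 CPM added (*Myh1*, *Myh2*, *Myh7* and *Myh8*, beside 1.79% of all genes), 1 in the fit of the groups compared (*Myh7*, beside 1.24%) and 1 with voom weights and a random block (*Myh1*, beside 2.38%), and none at an adjusted one. The intervals were wide, for example -2.35 for *Myh7* (95% interval -5.17 to 0.46), -1.89 for *Myh1* (-4.63 to 0.85) and -1.34 for *Myh3* (-4.43 to 1.75) on the log2 scale. For *Myh7* and *Myh1*, KO/WT in Prol was 1.27 and 1.04, from 0 to 7 expected counts a library. Their different changes therefore partly reflect the added 0.5 counts. In Prol and at D0 the genotypes also gave 0 of 8 chains at an adjusted or unadjusted p under 0.05, beside 0.00566% and 0% of all genes at an adjusted one and 1.11% and 1.47% at an unadjusted one.

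The non-muscle chains were abundant throughout. *Myh9* was at 2074, 1064 and 1536 CPM in WT Prol, 2064, 554 and 1360 in WT D0, and 2068, 526 and 677 in WT D2. In KO it was at 2214, 1146 and 1594 CPM in Prol, 2127, 723 and 1516 at D0, and 2599, 516 and 838 at D2. *Myh10* was at 421, 248 and 318 CPM in WT Prol, 537, 111 and 265 in WT D0, and 421.5, 120 and 177 in WT D2. In KO it was at 404, 221 and 349 CPM in Prol, 467.5, 134 and 304 at D0, and 391.5, 121 and 182 at D2. In all 6 groups library 1 was the highest and library 2 the lowest for both genes, and library 1 exceeded library 2 by 1.93 to 5.04 times for *Myh9* and 1.7 to 4.82 times for *Myh10*.

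Neither non-muscle chain passed the test between D2 and Prol (limma), by which 14.1% of all genes fell in WT and 15.2% in KO. The log2 fold change of *Myh9* was -0.73 (standard error 0.647, adjusted p = 0.437) in WT D2/Prol and -0.62 (0.647, adjusted p = 0.518) in KO D2/Prol, and that of *Myh10* -0.63 (0.601, adjusted p = 0.478) and -0.62 (0.601, adjusted p = 0.482). With the replicate number as a block, which removes the shared difference between same-numbered libraries, both fell in WT D2/Prol, with adjusted p = 0.0338 for *Myh9* and 0.04 for *Myh10*, and *Myh10* fell in KO D2/Prol with adjusted p = 0.0427 beside 0.0692 for *Myh9*. In that blocked fit 23.3% and 23.9% of all genes fell. With voom weights and the number as a random block neither chain passed, with adjusted p = 0.0917 for *Myh9* and 0.118 for *Myh10* in WT and 0.164 and 0.127 in KO. Libraries 2 and 3 were lower at D2 than in Prol for both genes in both genotypes. Library 1 of *Myh9* was level in WT, at 2074 and 2068 CPM, and higher at D2 in KO, at 2214 and 2599.

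The library order was related to transcript length. Among the 17672 genes tested, 884 had library 1 highest and library 2 lowest in all 6 groups, and those with a known coding transcript had a median length of 5.52 kb against 3.15 kb for all. The median log2 ratio of library 1 to library 2 was -0.53 to -0.23 for genes with transcripts under 2 kb and 0.32 to 0.91 for those of 6 to 9 kb, across the 6 groups. *Myh9* was above the latter at 0.95 to 2.33 and *Myh10* at 0.77 to 2.27. The short light chain genes *Myl12a* and *Myl6*, whose products bind these heavy chains, were at 720 ± 56.3 and 572 ± 52.8 CPM (SD, n = 3) in WT D2 and 621 ± 29.6 and 515 ± 37.1 in KO D2. For the comparisons between groups the 6 to 9 kb class had a median of -0.09 in WT D2/Prol, -0.03 in KO D2/Prol and 0.065 in KO/WT at D2. In WT D0/Prol and KO D0/Prol it was -0.125 and -0.0995. From under 2 kb to over 9 kb the median went from -0.196 to 0.197 in KO D2/D0. In KO/WT at D2 it went from -0.101 to 0.119, and in WT D0/Prol the other way, from 0.0264 to -0.0362. The part of transcript length in the spread of *Myh9* and *Myh10* was not tested.

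The share of *Myh10* among the non-muscle isoforms was similar in all groups, and no test of their ratio passed. *Myh10* made up 17 ± 1.06% of the summed *Myh9* and *Myh10* level per kb in WT Prol, 17.2 ± 2.31% in WT D0 and 18 ± 1.85% in WT D2 (SD, n = 3), and 15.9 ± 1.27%, 16.1 ± 1.16% and 16 ± 3.05% in KO. The log2 ratio of *Myh10* to *Myh9* differed by 0.052 between D2 and Prol (exact permutation test, two-sided, p = 0.705) and by 0.028 between D2 and D0 (exact p = 0.84). The log2 levels of both genes over the 18 libraries had r = 0.971, whereas *Myh9* and *Myh3* had r = -0.27. These values describe libraries that share culture, state and library number.

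**Figure D5:**
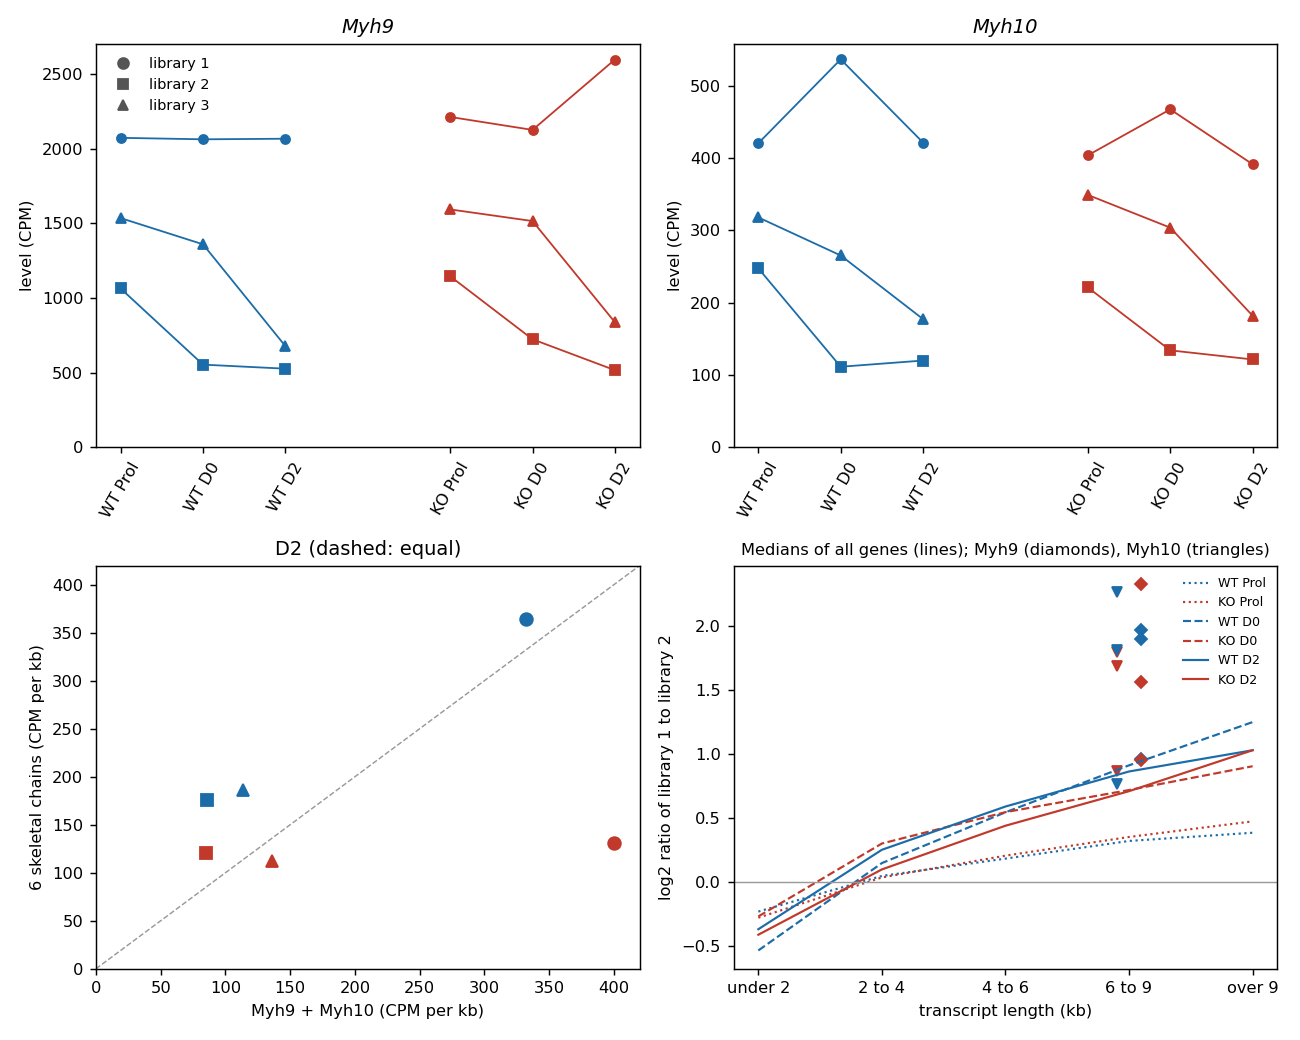
Top, level of *Myh9* and *Myh10* (CPM) in Prol, D0 and D2, with lines joining libraries of the same number (blue WT, red KO); bottom left, summed level per kb of the 6 skeletal chains against that of *Myh9* and *Myh10* in the 6 D2 libraries; bottom right, log2 ratio of library 1 to library 2 by transcript length, as medians of all genes at 10 CPM or more in a library (lines, 1 for each group) and for *Myh9* and *Myh10* (points). Library 1 is highest for both genes in every group, and the medians rise with transcript length in all 6 groups.

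At D2 the summed skeletal level was above the summed non-muscle level in all 3 WT libraries and in 1 of the 3 KO libraries. Before differentiation the skeletal chains made up 0.0471 to 0.902% of the summed level per kb of all 8 members. At D2 they made up 52.3, 67.2 and 62% in the WT libraries 1, 2 and 3 and 24.7, 58.7 and 45.2% in the KO libraries. The groups overlapped, with averages of 60.5 ± 7.54% in WT and 42.9 ± 17.1% in KO (SD, n = 3), and within each library number KO was below WT. *Myh3* was above *Myh9* per kb in 3 of 3 WT D2 libraries and *Myh9* above *Myh3* in 2 of 3 KO D2 libraries.

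Across the 18 libraries the genes most like *Myh3* in log2 CPM, among 10737 genes at 10 CPM or more in a library, were *Acta1* (r = 0.998), which encodes skeletal α-actin, *Mybph* (0.996), a myosin-binding protein, *Mymk* (0.996), the fusion protein myomaker, *Casq2* (0.995), a calcium store protein, and *Actc1* (0.993), cardiac α-actin. Those most like *Myh7* were *Atp2a1* (0.983), the fast muscle calcium pump, *Myom2* (0.98), *Mymk* (0.98), *Actc1* (0.977) and *Rbm24* (0.976), an RNA-binding splicing regulator of muscle. Among those closest to *Myh9* were *Tbl1x* (0.984), *Soga1* (0.984), *Sik3* (0.984) and *Lrrk1* (0.98), and *Myh10* was closest to *Ankrd17* (0.992), *Ap2b1* (0.992), *Kdm3b* (0.99), *Erc1* (0.988) and *Chd4* (0.988). The libraries share the step to D2 and the library numbers, so these values are a description only.

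Of 6 other heavy chain genes looked for, 3 were listed, and *Myh11*, *Myh14* and *Myh15* were not analysed here. *Myh6*, *Myh7b* and *Myh13* rose in WT D2/Prol (limma, 3 of 3, beside 16.6% of all genes), and *Myh6* and *Myh13* in KO D2/Prol (beside 17.1%). *Myh6* and *Myh13* entered the test only through D2, and *Myh13* had 0 counts in all Prol libraries and 3.3 to 10 at D2. *Myh7b*, a slow-type chain of muscle and brain, was at 0.971 ± 0.251 CPM (SD, n = 3) in WT Prol and 4.25 ± 1.54 in WT D2 (limma, log2 difference 2.09, standard error 0.508, adjusted p = 0.00523), and at 2.58 ± 1.6 in KO D2. *Myh13* reached 0.27 ± 0.0405 CPM in WT D2, and 8.45% of its windows occur in other genes.

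Light chains, which bind the neck of the heavy chain, rose in part. Of 12 looked for, 9 were listed, and 5 rose in WT D2/Prol and 4 in KO D2/Prol with none lower (limma, beside 16.6% and 17.1% of all genes that rose), at a median log2 fold change of 2.7 and 1.97. *Myl2* entered the test only through D2. *Mylpf*, the fast regulatory light chain, was at 1.92 ± 1.44 CPM (SD, n = 3) in WT Prol, 828 ± 204 in WT D2 and 443 ± 214 in KO D2. *Myl4*, the embryonic and atrial light chain, was at 1.67 ± 0.916, 537 ± 98.6 and 276 ± 97.4 CPM. *Myl12a* and *Myl6*, the non-muscle and smooth muscle light chains, did not pass the test in WT D2/Prol, at log2 fold changes of -0.18 and -0.06 (limma, adjusted p = 0.532 and 0.849). Between KO and WT at D2, 0 of the 9 passed (limma) and 1 was lower at an unadjusted p under 0.05 with a change over 1.5-fold and 10 CPM, beside 0% and 0.255% of all genes. All 9 had a value below 0, as did 52.2% of all genes, with a median of -0.83.

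Of the thick filament partners and assembly factors, 10 of 12 were listed, and 9 rose in each genotype from Prol to D2 with none lower (limma, beside 16.6% and 17.1% of all genes that rose), 5 of the 10 having entered the test only through D2, at a median log2 fold change of 7.91 in WT and 7.1 in KO. *Ttn*, the giant spring protein titin, reached 211 ± 187 CPM (SD, n = 3) in WT D2 and 330 ± 420 in KO D2, with library 1 highest at 426.5 and 815 CPM. *Mybph* was at 264 ± 66.9 and 126 ± 20.6 CPM and *Myom2*, which encodes the M-band protein myomesin 2, at 117 ± 37.7 and 61.2 ± 1.1. *Unc45a*, the general myosin chaperone, was at 26.8 ± 1.71 CPM in WT Prol and 32.4 ± 9.97 in WT D2, a log2 fold change of 0.23 (limma, adjusted p = 0.478). Between KO and WT at D2, 0 of the 10 passed (limma), 1 was lower by the unadjusted criteria used for the light chains, and 9 had a value below 0, beside 0%, 0.255% and 52.2% of all genes.

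Of 13 regulators of myosin genes, all listed, 7 rose in WT D2/Prol and 5 in KO D2/Prol with none lower (limma, beside 16.6% and 17.1% of all genes that rose), at a median log2 fold change of 1.59 and 0.7. *Sox6* entered the test only through D2. With the replicate block 9 and 6 rose, beside 24.4% and 24.6% of all genes. Between KO and WT at D2, 0 of the 13 passed (limma), 2 were lower by the same unadjusted criteria and 10 had a value below 0, beside 0%, 0.255% and 52.2% of all genes. *Myog* rose by 9.09 (standard error 0.693, limma, adjusted p = 3.13e-07) in WT and 7.88 (adjusted p = 1.12e-06) in KO, and *Mef2a*, a MEF2 factor, by 2.03 (0.31, adjusted p = 0.000124) and 1.77 (adjusted p = 0.000407). *Mef2d* was at 99 ± 16.9 CPM (SD, n = 3) in WT Prol and 149 ± 49 in WT D2 and *Srf*, a regulator of actin genes, at 126 ± 18.4 and 90.3 ± 68, and neither passed the test in either genotype (limma, adjusted p = 0.119 and 0.494 for *Mef2d* and 0.295 and 0.279 for *Srf*). *Mki67*, a marker of cycling cells, was at 33.2 to 56 CPM in WT D2 and 25.9 to 54.8 in KO D2, against 125 to 464 CPM in the Prol and D0 libraries.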

How the data were processed

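The members and the lists were chosen with earlier results of these data known. The authors aligned stranded reads of 50 bases, trimmed by cutadapt, to GRCm38 transcripts (NextGenMap), estimated counts with RSEM, summed them per gene, removed low genes, computed TMM factors with edgeR and applied limma-voom. The deposited values, in CPM, are each expected count plus 0.5, scaled by the adjusted library total to CPM. Expected counts and library totals (median 32939620) were recovered from them, and 36 to 49.1% of low counts were whole, so they were not treated as reads.

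Log2 CPM of all 18 libraries were fitted in limma 3.58.1 (R 4.3.3; lmFit, eBayes with trend) with 1 factor of 6 groups over 17672 genes that exceeded 5 expected counts in every library of some group. P-values were adjusted by Benjamini-Hochberg over these genes, and a call had an adjusted p under 0.05. The fit was tested on simulated data, in which only genes with a mean level above 10 CPM were changed. The simulated spread was capped and held no shared effect of library number. It therefore does not cover chains with a lower level or a wider spread. Ratios were tested with exact permutation tests. Lengths and shared windows are from GENCODE M21 transcripts, promoters from RefSeq. Named genes were the 8 members, up to 4 genes of each list with the highest mean CPM, the 5 genes most like *Myh3*, *Myh7*, *Myh9* and *Myh10* (1 of them is not reported here), and *Tmpo*, *Myog* and *Mki67*. Transcript lengths over all genes were added after the library order had been seen.

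Same-numbered libraries deviated together from their group means (correlation over genes above 0.1 in 40 of 45 pairs, -0.036 to 0.645), in all 3 numbers of each comparison except WT D2/Prol and WT D2/D0, where number 3 had 0.0393 and 0.01. The labels do not say what a number stands for, and the sequencing lane that the study used as a block is not in them. Alternatives were voom weights, other scalings, no filter, a pseudocount, the replicate block, fits of single comparisons and each library left out.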

Additional observations from a re-analysis of the deposited data

Results flagged for a closer look

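For *Myh1*, the differences from Prol to D0 had opposite signs in the 2 genotypes. All 3 same-numbered differences were above 0 in WT (log2 1.38, 0.59 and 0.21) and below 0 in KO (-0.59, -1.09 and -2.37), and the mean change in KO minus that in WT was -2.08. The difference was not tested. The WT pair numbered 3 had 0 counts in both libraries, so its 0.21 comes only from the added 0.5 counts and the library totals, and the WT pair numbered 2 had 1 and 2.1 counts. The gene had 0 to 11.5 expected counts a library in these groups, at or near the detection limit of 3 counts, so no direction is read from these values.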

How the results depend on the processing

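The 6 skeletal chains rose in each D2 comparison under each of the alternatives run, including each library left out, and 0 chains passed between Prol and D0 or between the genotypes. In fits of single comparisons some low chains did not pass the filter in Prol and D0 and gave no value. Scaling by library totals alone moved the median of all genes to 0.15 in WT D2/Prol and 0.156 in KO D2/Prol.

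With the replicate block, 2 chains in WT D2/Prol and 1 in KO D2/Prol were lower, where the fit without it had 0. In paired form the differences of the log2 ratios missed the threshold. Their sizes are the same by construction, at -3.91 and -4.22 for *Myh8* to *Myh3* from Prol and D0, -1.77 and -2.16 for *Myh7* to *Myh3* and -2.93 and -3.22 for *Myh2* to *Myh1*. The pairing changed no other call among the heavy chains and their ratios. In the gene lists, more light chains, thick filament partners and regulators rose in some D2 comparisons with the block than without it. For the regulators these were 9 against 7 in WT D2/Prol and 6 against 5 in KO D2/Prol.

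KO/WT at D2 changed sign for 3 chains that had passed no test. *Myh10* ranged from -0.48 to 0.49 with each library left out, above 0 without WT library 1, KO library 2 or KO library 3, and was 0.028 without the 6 libraries numbered 1. *Myh9* ranged from -0.46 to 0.8, below 0 without WT library 2, WT library 3 or KO library 1. *Myh4* ranged from -0.93 to 0.19, above 0 without WT library 1, and was 0.28 without the libraries numbered 1. The ratio of *Myh7* to *Myh3* ranged from -0.37 to 0.11, above 0 without WT library 1. The log2 ratio of *Myh10* to *Myh9* ranged from -0.011 to 0.15 from Prol, below 0 without KO D2 library 2, and from -0.035 to 0.13 from D0, below 0 without WT D0 library 3, KO D0 library 2, WT D2 library 3 or KO D2 libraries 2 or 3. The causes were not tested. Leaving out the libraries numbered 1 was added after the data were seen, as was voom with a random block. Chains under 3 counts a library are limited by depth.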
